A study of Capra hircus with 9 samples.

Results

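The genes described here are 48 genes of the kinetochore, the mitotic spindle and the mitotic kinases, out of the 23499 genes in the deposited table of goat mammary gland expression. They were chosen by symbol from textbook roles in cell division, with earlier results of these data known. All 48 symbols were found in the table, and no test of the list as a whole was run. The table holds 9 libraries of whole mammary tissue from 9 Laoshan dairy goats, 1 goat per library, with 3 libraries in each of late lactation (LL, 240 days postpartum), the dry period (DP, 300 days postpartum) and late gestation (LG, 140 days after mating). All goats were in parity 3 with a mean age of 4 years, and no group carries an allele or a treatment. Values were taken to be FPKM although the header gives no unit, that is, the fragments assigned to a gene relative to its length and to all fragments of the library. Levels can then be compared between genes, except where a value may include a fixed amount, as described below.

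A dividing cell attaches its chromosomes to spindle microtubules through kinetochores, protein platforms that assemble on the centromere. Cyclin-dependent, Polo and Aurora kinases time these steps, the spindle checkpoint holds the cell until every kinetochore is attached, and the anaphase-promoting complex then releases the sister chromatids. Most of these genes are transcribed mainly in G2 and mitosis, which is why their mRNA is widely read as a sign of dividing cells, and the mammary epithelium is known to expand during pregnancy.

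Library totals were 940676 to 1157015 FPKM in LL, 601250.2 to 616268 in DP, with 733277 to 768157 in LG, and the reads behind each value are unknown. Milk protein genes differ widely between the stages: the 5 listed genes (CSN1S1, CSN1S2, CSN2, CSN3 and LALBA) summed to 501563 to 811887 scaled FPKM in LL, 72.4 to 89.4 in DP, with 7228 to 10075 in LG. Each library was therefore divided by its own median-ratio factor, 0.498 to 0.605 for the LL libraries, 1.44 to 1.53 for DP and 1.198 to 1.31 for LG, which gives scaled FPKM. Fold changes are differences of log2(scaled FPKM + 1) between stage means, which understates changes of low genes. A gene was called when its adjusted p from limma was below 0.05 and its log2 fold change was at least 1 in size, over all 14701 genes tested. All 48 members passed the filter of at least 0.5 FPKM in at least 3 libraries, but 12 of them reached it with the help of LG libraries, and TTK and KIF4A through LG libraries alone.

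A feature of the table touches part of the members. Values of part of the genes appear to start at a fixed amount per library, which is 1.0, 1.3 and 1.5 FPKM in LL1 to LL3, 1.0, 1.5 and 1.5 in DP1 to DP3 and 1.5, 1.2 and 1.0 in LG1 to LG3. The number of genes rose sharply there in LL only, from 110 to 173 genes in the 0.1 FPKM below the amount (range of the libraries) to 334 to 531 in the 0.1 FPKM above it. It rose less in LG, from 64 to 128 genes to 123 to 172, and little in DP, from 79 to 93 genes to 96 to 117. In DP the number rose more at 1.5, 2.0 and 2.0 FPKM (from 98 to 161, 116 to 204 and 128 to 210 genes). In 405 genes the value equalled that of a neighbouring gene plus these amounts in all 9 libraries, within 0.011 FPKM, and in 0 genes with the larger amounts in DP, so the DP amounts rest on these pairs. Of the members, 32 were below the amount in at least 1 library and so cannot hold it throughout, whereas 16 were at or above it in every library: CCNA2, PLK1, AURKB, CENPA, CENPK, NDC80, NUF2, CENPE, BUB3, KIF14, KIF15, KIF18A, KIF23, KIF2C, ECT2 and NCAPH. Both groups are described side by side, since this division uses the values themselves and supports nothing on its own.

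**Figure D1:**
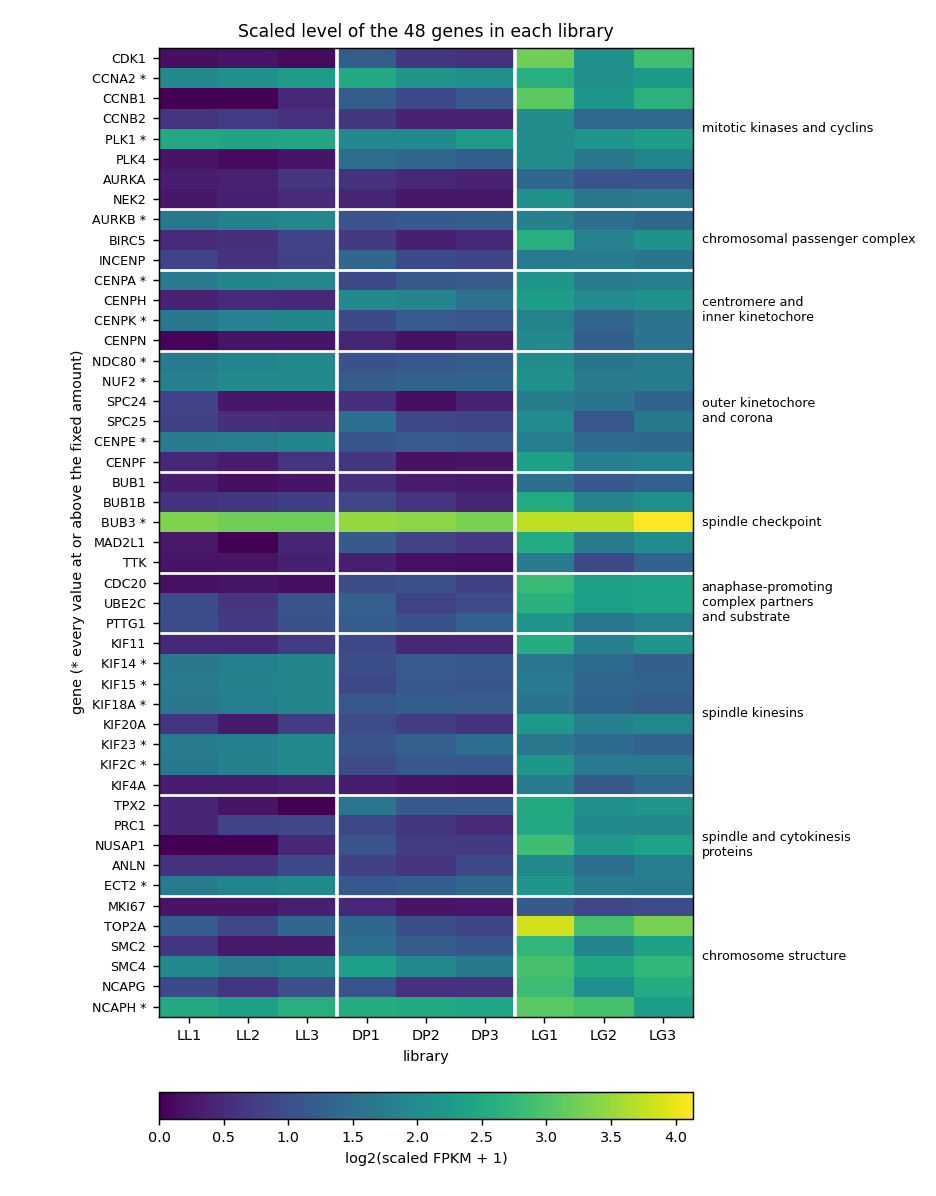
Heat map of log2(scaled FPKM + 1) for the 48 genes (rows, by role) in the 9 libraries (columns), with an asterisk on the 16 genes whose values all reach the fixed amount of each library. The LG columns are the brightest for most genes without an asterisk, while the genes with one keep a mid level in LL.

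Late gestation stood above both other stages for most of these genes. In LG against DP, 21 of 48 members were called higher and 0 lower, where 6.37% of all genes tested were called higher and 6.88% lower. At an unadjusted p below 0.05 limma also put 0 members lower and 42 higher. The share of all genes at an unadjusted p was not counted in any comparison. All 48 log2 fold changes were above 0 (50.8% of all genes), with a median of 0.86 beside 0.01 for all genes tested. They ran from 0.06 for CCNA2, whose DP and LG values match a neighbouring gene plus the fixed amounts, to 2.26 for TOP2A. By adjusted p alone 40 members were higher in LG than in DP (18.4% of all genes), and the scaled values of the 2 stages did not overlap in 42 (25.1% of all genes). In LG against LL, 25 members were called higher and 0 lower, against 10.7% and 6.61% of all genes, while 5 were lower at an unadjusted p below 0.05. Of the 48, 38 had a log2 fold change above 0 (51.1% of all genes), and the median was 1.05 beside 0.02 for all genes. In that comparison 33 members were higher and KIF18A was lower by adjusted p alone (25.6% and 24.6% of all genes), and 33 stood wholly above LL and 5 wholly below it (31.0% and 30.2% of all genes). Both comparisons share the LG libraries, and 20 members were called in both, 5 in LG against LL alone and 1, CCNB2, in LG against DP alone. Among the 36 members that pass the filter without any LG library, 16 were called higher against LL and 12 against DP. In whole tissue, fewer dividing cells and less of these mRNAs per cell cannot be told apart.

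These counts differ between the 2 groups of members. All 25 calls against LL and all 21 against DP fell among the 32 members below a fixed amount, which had median log2 fold changes of 1.46 and 1.19. Of all tested genes below an amount, 30.8% were called higher in LG against LL, while 6.05% were called higher against DP. None of the 16 other members was called in any comparison by limma. By adjusted p alone, 10 of the 16 were higher in LG than in DP (18.4% of all genes tested). Against LL, 1 was higher (BUB3) and 1 lower (KIF18A) in LG (25.6% and 24.6% of all genes). In DP, 13 were lower than in LL (28.6% of all genes). At an unadjusted p below 0.05 these counts were 11, 1, 5 and 13. Of all tested genes at or above every amount, 2.69% were called higher in LG against LL, while 6.50% were called higher against DP.

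**Figure D2:**
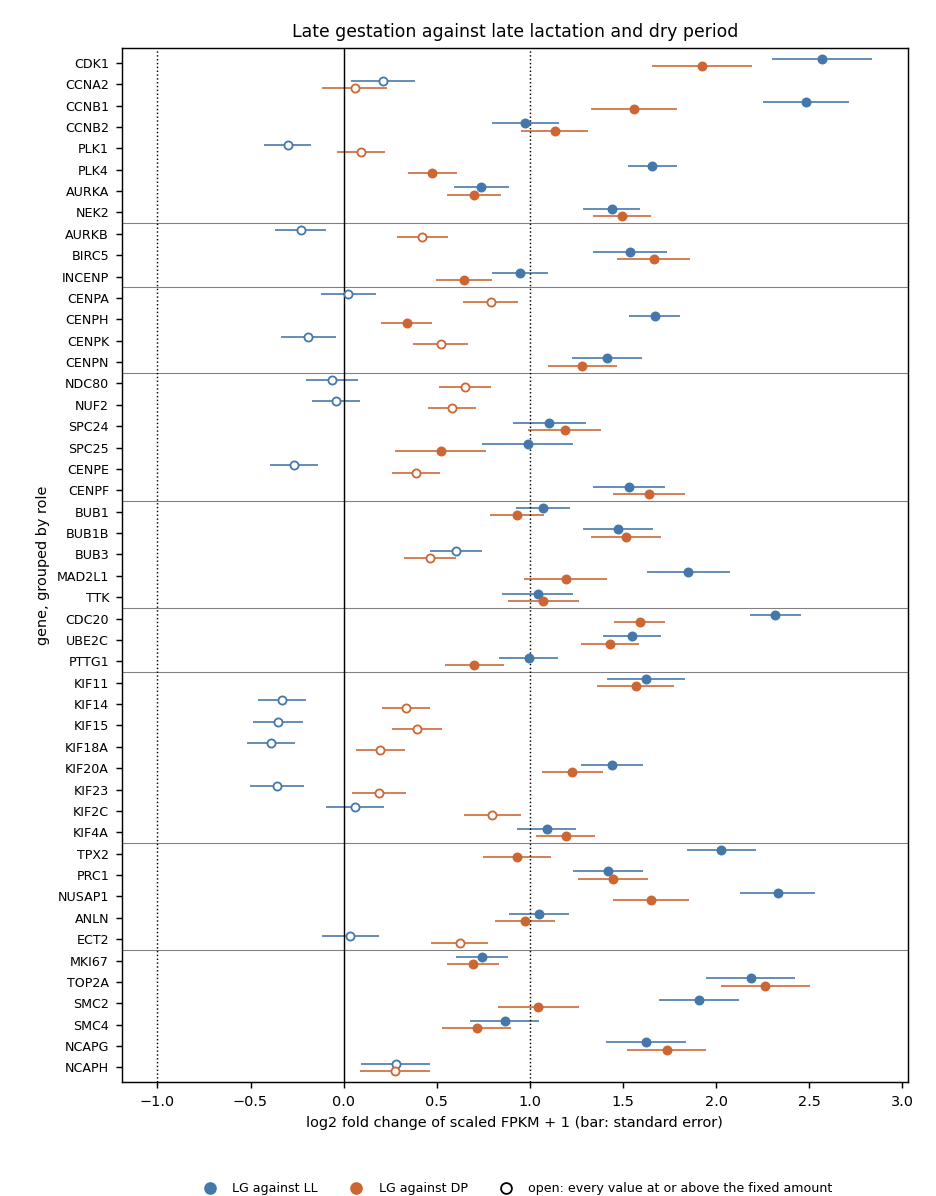
Log2 fold change of each gene (rows, by role) in LG against LL (blue) and LG against DP (orange), with standard errors; open circles mark the 16 genes at or above every fixed amount and dotted lines mark a log2 fold change of 1 in size. Filled circles lie above 0 in both comparisons, and the open blue circles lie between -0.39 and 0.60.

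Among the mitotic kinases and cyclins, CDK1, the kinase that drives entry into mitosis, had the largest change. CDK1 (gene ID 100861361, chromosome 28, 29028552 to 29042931, minus strand, in the table's coordinates, whose build is not named) was at 0.06, 0.10 and 0.05 FPKM in LL, 2.01, 0.82 and 0.73 in DP, then 10.09, 4.11 and 8.34 in LG. The 3 stages did not overlap, and LG2 was the lowest of the LG libraries. Its log2 fold change was 2.57 (SE 0.27, adjusted p = 7.5e-05) against LL and 1.93 (SE 0.27, adjusted p = 0.00067) against DP, and the scaled LG mean was 7.57 times the DP mean. Its partner cyclin B1 (CCNB1) was listed at 0 in LL1 and LL2 and at 0.24 FPKM in LL3, and then at 2.03, 1.27 and 1.70 in DP, then 9.04, 4.33 and 7.01 in LG. CCNB1 was called in both LG comparisons (2.48 and 1.56). Cyclin B2 (CCNB2) was called against DP (1.13) and fell just short of the fold limit against LL (0.98, adjusted p = 0.0019).

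PLK4, which starts centriole duplication, was called in DP against LL. It was at 0.08, 0.05 and 0.11 FPKM in LL, 2.76, 2.34 and 1.96 in DP, then 3.71, 2.65 and 3.46 in LG, so it was called higher in DP than in LL (1.18, SE 0.13) and in LG than in LL (1.66), whereas LG against DP gave 0.48 (adjusted p = 0.02). With quantile normalization its DP against LL value was 0.77, below the fold limit. NEK2, a kinase of centrosome separation, was called in both LG comparisons (1.44 and 1.5), and AURKA, the Aurora kinase of the spindle poles, was at 0.74 and 0.70 with adjusted p of 0.0027 and 0.0056, short of the fold limit. PLK1, the main Polo kinase, was at 2.31, 2.39 and 2.72 FPKM in LL, 4.36, 4.19 and 5.49 in DP, then 3.61, 4.23 and 5.20 in LG. Those values are those of DCTN5, the gene 7856 bases upstream on chromosome 25, plus the fixed amounts in all 9 libraries, so they are not a separate measurement of PLK1. CCNA2, the cyclin of S phase and G2, was at 1.42, 1.77 and 2.34 FPKM in LL, 7.30, 4.97 and 4.62 in DP, then 6.04, 3.98 and 4.97 in LG. It equalled its neighbour BBS7, which ends 159 bases before it on chromosome 6, plus the amounts in the 6 DP and LG libraries but not in LL. Its LG against DP value is therefore not a separate measurement of CCNA2. Neither PLK1 nor CCNA2 was called, and their LG against DP values were 0.09 and 0.06.

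**Figure D3:**
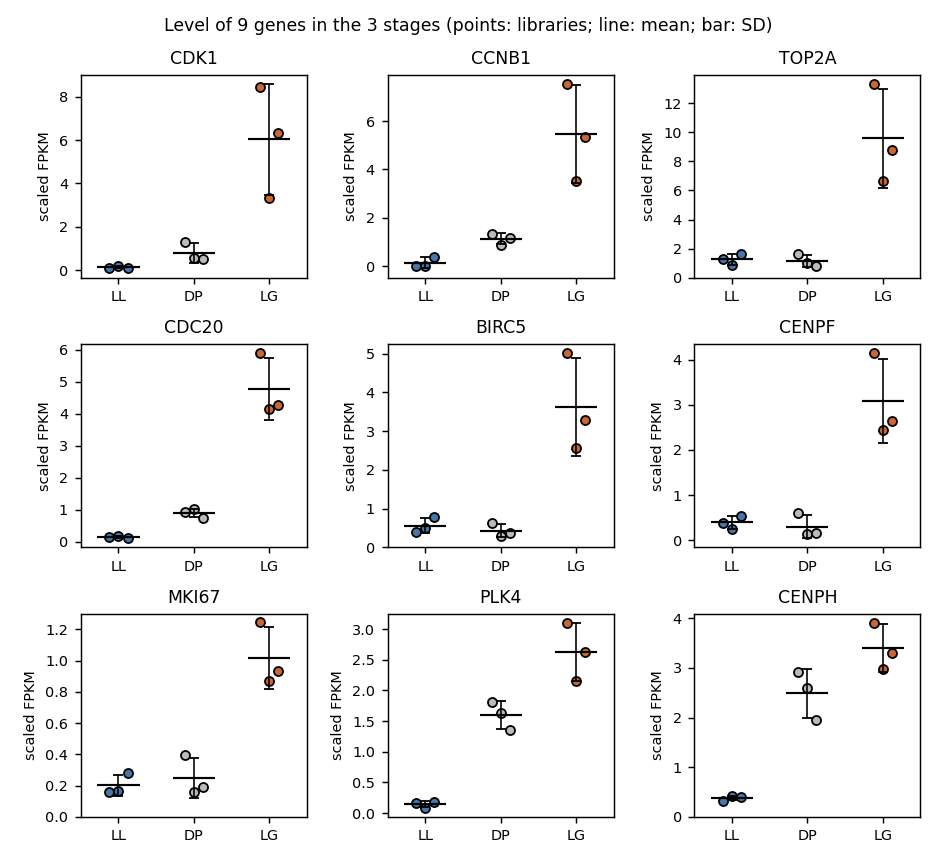
Scaled FPKM of 9 members in LL, DP and LG; points are the 3 libraries of a stage, lines are means and bars are SDs, and each panel has its own axis. In 7 panels the LG libraries lie well above both other stages, whereas in PLK4 and CENPH they lie closer to DP. Every DP library is above every LL library in PLK4 and CENPH, and also in CDK1, CCNB1 and CDC20.

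In the chromosomal passenger complex, which corrects faulty attachments, BIRC5 (survivin) carried the largest difference. It was at 0.20, 0.27 and 0.48 FPKM in LL, 0.95, 0.42 and 0.54 in DP, then 6.0, 3.15 and 4.33 in LG, and every LG library was above every other library. Its log2 fold change was 1.54 (SE 0.20) against LL and 1.66 (SE 0.20) against DP. The scaffold INCENP was at 0.95 and 0.65 with adjusted p of 0.00087 and 0.0096, below the fold limit in both. AURKB, the kinase of the complex and a member at every fixed amount, was at 1.08, 1.40 and 1.68 FPKM in LL, 1.65, 1.80 and 1.90 in DP, then 3.01, 2.26 and 2.14 in LG. Its LL values exceeded the amounts by 0.08 to 0.18 FPKM only. It was at -0.23 against LL (adjusted p = 0.18) and 0.42 against DP (adjusted p = 0.036).

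Of the centromere and inner kinetochore genes, CENPN and CENPH, both of the network that sits on CENP-A chromatin, were the members below a fixed amount. CENPN was at 0.02, 0.10 and 0.11 FPKM in LL, 0.52, 0.21 and 0.35 in DP, then 3.52, 1.66 and 2.59 in LG, and was called in both LG comparisons (1.41 and 1.28). CENPH was at 0.16, 0.23 and 0.24 FPKM in LL, 4.47, 3.74 and 2.81 in DP, then 4.69, 3.67 and 4.35 in LG. DP and LG were both far above LL for CENPH, with calls of 1.33 in DP against LL and 1.67 in LG against LL, while LG against DP gave 0.34 (adjusted p = 0.081). The DP call ended with quantile normalization (0.76). CENPA, the histone variant that marks the centromere, was at 1.15, 1.5 and 1.68 FPKM in LL, 1.3, 1.81 and 1.82 in DP, then 4.12, 2.77 and 3.14 in LG. CENPK was at 1.07, 1.41 and 1.64 in LL, 1.39, 1.84 and 1.70 in DP, then 3.12, 1.94 and 2.65 in LG. Both reached every fixed amount, and in LL they exceeded it by at most 0.20 FPKM. CENPA gave 0.79 (adjusted p = 0.0032) and CENPK 0.52 (adjusted p = 0.022) in LG against DP, and neither passed against LL.

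The outer kinetochore binds microtubules, mainly through the NDC80 complex. CENPF, a large protein of the fibrous corona, was at 0.19, 0.14 and 0.33 FPKM in LL, 0.91, 0.21 and 0.24 in DP, then 4.96, 3.02 and 3.48 in LG. It was called at 1.53 (SE 0.19) against LL and 1.64 (SE 0.19) against DP, and its scaled LG mean was 10.2 times the DP mean. SPC24 was called in both LG comparisons (1.10 and 1.19). Its partner SPC25 was at 0.99 against LL (adjusted p = 0.0081) and 0.52 against DP (adjusted p = 0.13), where DP1 (2.80 FPKM) lay above LG2 (1.46). The 2 other subunits, NDC80 and NUF2, and the kinesin CENPE reached every fixed amount. NUF2 was at 1.23, 1.57 and 1.78 FPKM in LL, 2.01, 2.15 and 2.13 in DP, then 3.97, 2.86 and 3.10 in LG, and CENPE at 1.11, 1.36 and 1.66, then 1.77, 1.84 and 1.71, then 2.89, 2.06 and 2.16. In LG against DP the log2 fold changes were 0.65 for NDC80, 0.58 for NUF2 and 0.39 for CENPE, all with adjusted p below 0.05, and none of the 3 passed against LL. With the amounts subtracted from NDC80 and NUF2, the 4 subunits of the complex ranged over 0.11 to 0.39 FPKM in LL, 0.17 to 2.80 in DP, then 1.31 to 3.65 in LG.

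In the spindle checkpoint, MAD2L1, the inhibitor of CDC20, was at 0.11, 0 and 0.21 FPKM in LL, 1.89, 1.15 and 0.87 in DP, then 5.78, 2.81 and 3.99 in LG. It was called at 1.85 against LL and 1.19 against DP. The BubR1 gene BUB1B was at 0.26, 0.33 and 0.42 FPKM in LL, 1.27, 0.77 and 0.49 in DP, then 5.79, 3.20 and 4.20 in LG, with calls of 1.47 and 1.52. TTK, the kinase that starts checkpoint signalling, was called at 1.04 and 1.07, and BUB1 at 1.07 against LL, with 0.93 (adjusted p = 0.0012) against DP. BUB3, which also acts outside the checkpoint, had the highest level of all 48 genes, at 4.5, 4.68 and 5.01 FPKM in LL, 15.48, 13.96 and 12.76 in DP, then 14.69, 15.08 and 21.73 in LG. It was well above the fixed amounts throughout, and its log2 fold changes of 0.60 (adjusted p = 0.0062) and 0.46 (adjusted p = 0.029) were below the fold limit.

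CDC20, the mitotic activator of the anaphase-promoting complex, had the lowest adjusted p of the 48 genes in both LG comparisons. It was at 0.07, 0.10 and 0.07 FPKM in LL, 1.43, 1.46 and 1.08 in DP, then 7.05, 5.11 and 5.60 in LG. The 3 stages were separated with little spread, and the log2 fold changes were 2.32 (SE 0.14, adjusted p = 3.5e-06) and 1.59 (SE 0.14, adjusted p = 7.5e-05). UBE2C, the ubiquitin-conjugating enzyme of the complex, was at 0.49, 0.32 and 0.66 FPKM in LL, 2.14, 1.15 and 1.35 in DP, then 6.14, 5.01 and 5.62 in LG, with calls of 1.55 and 1.43. The substrate securin (PTTG1) was at 0.46, 0.35 and 0.62 FPKM in LL, 1.99, 1.54 and 2.08 in DP, then 4.24, 2.58 and 3.38 in LG. Its values of 0.99 and 0.70 (adjusted p = 0.00092 and 0.0084) missed the fold limit.

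Of the 8 spindle kinesins, the 3 below a fixed amount were called in both LG comparisons. KIF11, which pushes the spindle poles apart, was at 0.19, 0.21 and 0.39 FPKM in LL, 1.33, 0.54 and 0.53 in DP, then 5.89, 3.03 and 4.57 in LG, with log2 fold changes of 1.62 and 1.57 (SE 0.21 each). KIF20A, a kinesin of the central spindle, gave 1.44 and 1.23, and the chromokinesin KIF4A 1.09 and 1.19. The other 5 lay close to the amounts in LL. The microtubule depolymerase KIF2C was at 1.08, 1.37 and 1.75 FPKM in LL, 1.44, 1.73 and 1.68 in DP, then 4.26, 2.78 and 3.00 in LG, and gave 0.80 against DP (adjusted p = 0.0036). KIF18A was at 1.05, 1.36 and 1.63 FPKM in LL, 1.78, 1.96 and 1.85 in DP, then 2.42, 1.86 and 1.74 in LG, and KIF23 at 1.15, 1.36 and 1.76, then 1.70, 2.03 and 2.59, then 2.59, 2.14 and 1.91. These 2 overlapped between DP and LG, with 0.20 and 0.19. KIF14 (0.33, adjusted p = 0.073) did not pass against DP and KIF15 (0.40, adjusted p = 0.045) did, below the fold limit.

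Among the spindle and cytokinesis proteins, NUSAP1, a microtubule bundling protein, was listed at 0 in LL1 and LL2 and at 0.23 FPKM in LL3, and was at 1.73, 0.93 and 0.89 in DP, then 7.39, 4.49 and 5.61 in LG. It was called at 2.33 against LL and 1.65 against DP. The midzone protein PRC1 was called in both (1.42 and 1.45), and the cleavage furrow protein ANLN at 1.05 against LL, with 0.97 against DP (adjusted p = 0.0017). TPX2, the activator of Aurora A, was also called in DP against LL (1.10, SE 0.18), but not with quantile normalization (0.65, adjusted p = 0.070), without DP1 (0.91) or with the amounts subtracted from every gene that reaches them (0.93). It gave 2.03 against LL and 0.93 (adjusted p = 0.0041) against DP in late gestation. ECT2, which activates the GTPase of the cleavage furrow, was at 1.12, 1.45 and 1.78 FPKM in LL, 1.82, 1.95 and 2.37 in DP, then 4.24, 2.92 and 2.97 in LG, all at or above the amounts. It gave 0.03 against LL and 0.62 (adjusted p = 0.012) against DP.

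Of the chromosome structure genes, TOP2A, the topoisomerase that untangles sister chromatids, reached the highest LG level among the members below a fixed amount. TOP2A (gene ID 102188973, chromosome 19, 40273646 to 40299660, minus strand) was at 0.65, 0.48 and 0.99 FPKM in LL, 2.51, 1.44 and 1.19 in DP, then 15.98, 8.19 and 11.51 in LG. LL and DP overlapped on the scaled range, and LG was above both, with log2 fold changes of 2.19 (SE 0.24, adjusted p = 9.6e-05) and 2.26 (SE 0.24, adjusted p = 0.00018). MKI67 (gene ID 102183289, chromosome 26, 4510843 to 4540461, plus strand), the gene of the Ki-67 antigen, was also highest in LG, at a low level, with 0.08, 0.09 and 0.17 FPKM in LL, 0.60, 0.23 and 0.27 in DP, then 1.49, 1.07 and 1.23 in LG. MKI67 had the lowest scaled LG mean of all 48 genes, 1.02, before any fixed amount was subtracted. KIF18A, for example, exceeded the amounts by only 0.66 to 0.92 FPKM in LG. The log2 fold changes of MKI67, 0.74 (adjusted p = 0.0021) and 0.69 (adjusted p = 0.0045), missed the fold limit, although its scaled LG mean was 4.12 times the DP mean.

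The products of the condensin genes compact the chromosomes. NCAPG was called at 1.62 and 1.73 and SMC2 at 1.91 and 1.05. SMC4, the partner of SMC2, was at 0.86 (adjusted p = 0.0039) and 0.71 (adjusted p = 0.015), and had the highest LL level of the members below an amount (1.43, 1.24 and 1.63 FPKM). The table gives MIR16B, which lies within SMC4 on chromosome 1, the SMC4 values plus the fixed amounts in all 9 libraries. NCAPH was at 2.38, 2.25 and 3.09 FPKM in LL, 7.50, 6.77 and 6.29 in DP, then 8.90, 8.18 and 5.22 in LG, with 0.28 and 0.27 in the LG comparisons and no call. These values equal those of ITPRIPL1, which shares 4465 bases with NCAPH on the same strand of chromosome 11, plus the amounts in all 9 libraries.

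The 16 members at or above every amount were recomputed with the amounts subtracted, an alternative chosen after the values were seen. Of the 16, 12 lay within 0.3 FPKM of the amount in every LL library, and they exceeded it by 0.05 to 0.28 FPKM in LL, 0.17 to 1.09 in DP, but 0.66 to 2.76 in LG. CCNA2, PLK1, BUB3 and NCAPH lay further above it. After division by the scaling factors the amounts themselves come to 2.01 to 2.48 in LL, 0.654 to 1.04 in DP, then 0.761 to 1.25 in LG. With the subtraction, the median log2 fold change of the 16 went from -0.13 to 0.79 in LG against LL, from 0.41 to 0.57 in LG against DP and from -0.64 to 0.10 in DP against LL. CENPA (1.02), KIF2C (1.12) and ECT2 (1.03) then passed both limits against LL, CENPA (1.14) and KIF2C (1.17) did so against DP, and the lowest of the 16 values in DP against LL was -0.12, for CENPA. With the amounts subtracted from every gene of the table that reaches them, which also moves the scaling, 20 members were called higher against LL (SPC24, BUB1, TTK, KIF4A and ANLN no longer), 23 against DP and 2 in DP against LL, where the median of the 48 was -0.05. Of the 16, 6 also reached the larger DP amounts (CCNA2, PLK1, NUF2, BUB3, KIF23 and NCAPH). With those subtracted in DP, NUF2 passed both limits in LG against DP (1.18), and the median of the 16 was 0.59 in LG against DP and 0.06 in DP against LL. Whether a given gene holds the amount cannot be read from its own values. PLK1 and NCAPH match a neighbour plus the amounts in all 9 libraries, and CCNA2 does so in the 6 DP and LG libraries.

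**Figure D4:**
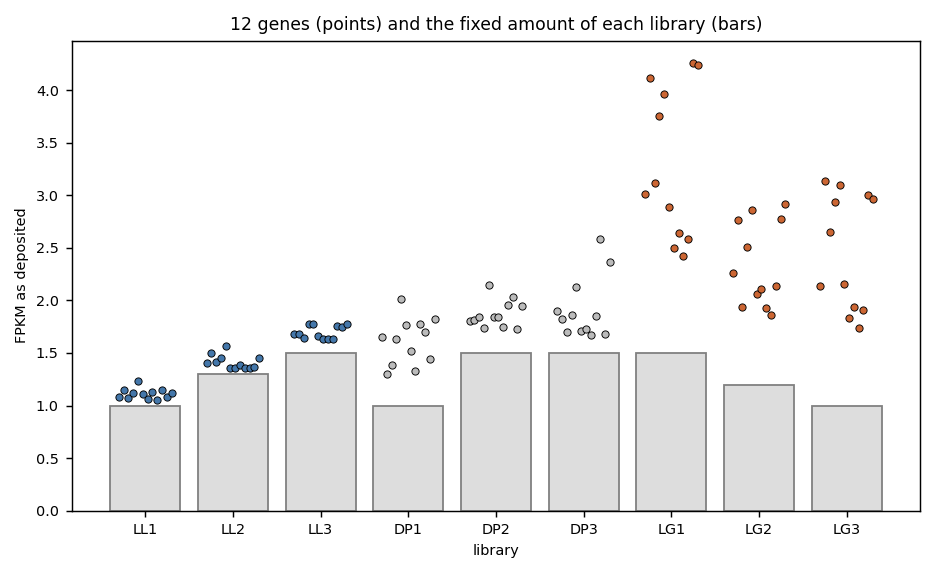
FPKM as deposited of the 12 members within 0.3 FPKM of the fixed amount in every LL library (points, in the same order in each library) over the amount itself (bars). The LL points sit 0.05 to 0.28 FPKM above the bars, a range set by the choice of these genes. The LG points sit 0.66 to 2.76 above the bars, without scaling.

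**Figure D5:**
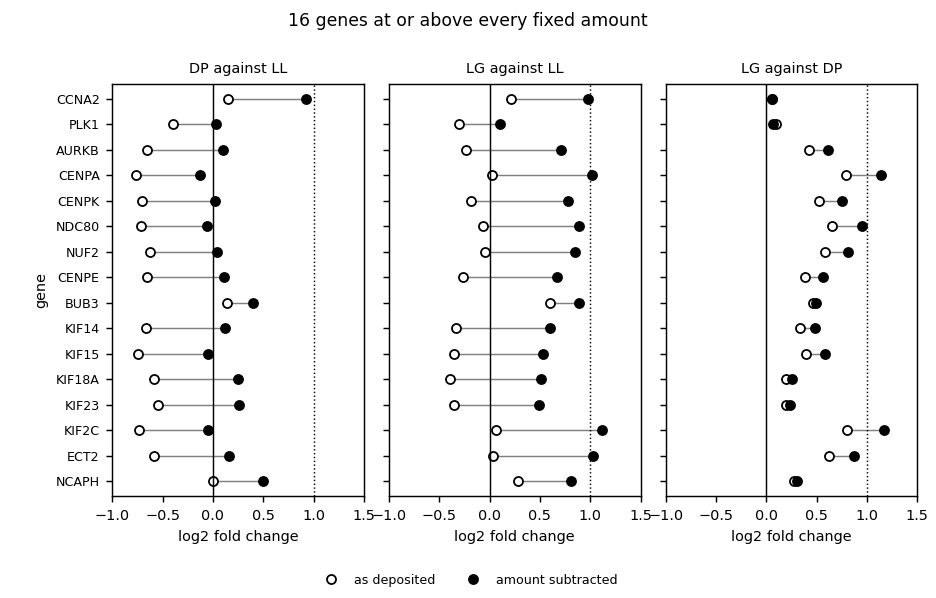
Log2 fold changes of the 16 members at or above every fixed amount, as deposited (open) and with the amount subtracted (filled), in 3 comparisons; dotted lines mark 1. In LG against LL the median moved from -0.13 to 0.79 and all 16 filled points lie above 0. The filled points of PLK1 and NCAPH hold the values of a neighbouring gene, and so does that of CCNA2 in LG against DP.

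Between the dry period and late lactation the members had no common direction. In DP against LL, 3 of 48 members (PLK4, CENPH and TPX2) were called higher and 0 lower, where 13.8% of all genes were called higher and 8.79% lower, 24 log2 fold changes were above 0 (50.2% of all genes) and the median was -0.01. By adjusted p alone 8 members were higher and 13 lower (28.2% and 28.6% of all genes), and the scaled values lay wholly above LL in 12 and wholly below it in 13 (32.5% and 33.4% of all genes). The 13 lower members by adjusted p were all at or above every fixed amount, and the 16 members there had a median of -0.64. In the 32 members below an amount the median was 0.12, beside 0.74 for all tested genes below an amount. Of these 32, 21 were above 0, 8 were higher and 0 lower by adjusted p, and 3 were called higher. Of all tested genes below an amount, 38.9% were called higher and 6.84% lower. With the amounts subtracted from the 16, 33 of the 48 were above 0. The direction depends on the scaling: in unscaled FPKM the DP mean was above the LL mean in all 48 members (93.0% of all genes), 35 without overlap (84.0% of all genes), whereas with quantile normalization 36 of 48 log2 fold changes were below 0 (49.9% of all genes). Without scaling the median of all genes moved to 1.09, above the 0.45 of the members. In unscaled FPKM all 48 members also had every LG library above every LL library, but so did 76.1% of all genes. Against DP, 46 of 48 had a higher unscaled mean in LG (35.9% of all genes), and 37 did not overlap (15.5% of all genes). The exceptions to the higher mean were CCNA2 and PLK1, whose DP and LG values equal those of a neighbour plus the amounts.

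Within each stage 1 library led most of the 32 members below an amount, less clearly in LL. LG1 was the highest LG library in 31 of the 32 (36.3% of all genes tested) and LG2 the lowest in 27 (28.6% of all genes). DP1 was the highest DP library in 29 (35.4% of all genes), while the lowest was DP3 in 20 and DP2 in 12 (35% and 27.6% of all genes). In LL the highest was LL3 in 21, LL1 in 7 and LL2 in 4 (40.7%, 28.8% and 30.5% of all genes). The lowest was LL3 in 6, LL1 in 13 and LL2 in 13 (30.7%, 39.5% and 29.8% of all genes). The summed scaled FPKM of the 32 was 16.2, 12.7 and 18.8 in LL, 36.7, 23.8 and 22.1 in DP, then 141.7, 81.8 and 101.8 in LG. In unscaled FPKM, at least 1 FPKM was reached by 1 of the 32 in each LL library, by 21, 13 and 13 in DP1 to DP3 and by all 32 in every LG library. The low LL counts follow in part from the choice of the 32, which lie below a fixed amount in at least 1 library. The share of all genes was not counted here. Without LG1, 20 members were called higher in LG against LL and 16 against DP. SPC24 (0.99), BUB1 (0.95) and ANLN (0.93) then missed the fold limit against LL, TTK and KIF4A were no longer tested, and CCNB2 (0.92), MAD2L1 (0.96) and SMC2 (0.84) missed it against DP.

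The makeup of the tissue, read from lists of marker genes, also differed between stages, and its part in these results was not tested. All listed markers were in the table except CD163, and none was at 0 in every library. The 6 luminal epithelial markers summed to 819 to 1106 scaled FPKM in LL, 269 to 522 in DP, with 733 to 891 in LG, with 1 of 6 called higher in LG than in DP and 0 in LG than in LL. The 6 basal and myoepithelial markers ranged over 180.0 to 234, 136 to 453 and 225 to 304, and the 6 fibroblast markers over 212 to 324, 502 to 2392 and 521 to 954. T cell markers (5) summed to 5.52 to 6.65 in LL, 19.2 to 60.9 in DP, then 14.2 to 22.8 in LG. B and plasma cell markers (6) were at 193 to 846 in LL, with 40.4 to 139 in DP, then 10.9 to 23.1 in LG, and 5 macrophage and myeloid markers were at 32.7 to 42.6, 67.0 to 100.4 and 26.2 to 32.5. Endothelial markers (5) were at 99.9 to 129, 119 to 171 and 61.9 to 88.6, and adipocyte markers (4) at 2.71 to 3.72, 2.57 to 20.4 and 1.14 to 1.69. In LG against LL, 3 of 5 T cell, 2 of 6 fibroblast and 2 of 6 basal markers were called higher. Lower were 2 of 6 B and plasma cell, 1 of 5 macrophage and 5 of 5 milk protein markers. In LG against DP, 1 of 6 basal and 5 of 5 milk protein markers were called higher. Called lower there were 2 of 6 fibroblast, 2 of 6 B and plasma cell and 4 of 5 macrophage markers. None of the lists had its highest library in LG. Every LG library was above every DP library for luminal and milk protein markers. Every LG library was below every DP library for endothelial, B and plasma cell, macrophage and myeloid, and adipocyte markers. DP1, which led most mitotic members in DP, was the highest DP library for T cell, macrophage and myeloid, adipocyte and milk protein markers. It was the lowest for luminal, basal and fibroblast markers, and in between for endothelial and for B and plasma cell markers.

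Other genes of the same machinery, 117 genes in 6 lists of which 115 were tested, were examined next. In LG against DP 11 were called higher and 0 lower (6.37% and 6.88% of all genes), and the median difference was 0.26 (log2), while in LG against LL 21 were called higher and 1 lower (10.7% and 6.61% of all genes), with a median of 0.20. All 21 higher calls against LL came from the 38 tested genes below a fixed amount (median 1.09) and 0 from the 77 at or above every amount (median 0.03), and against DP 9 and 2 did. Of 31 other kinetochore genes, 2 were called higher against DP, near the share of all genes, and 9 against LL, led by CENPW (1.01 against DP), a centromere histone-fold protein, and HJURP (1.54 against LL), the chaperone that deposits CENP-A. Of 26 tested spindle and cytokinesis genes, 6 and 8 were called higher, led by CKAP2 in both (1.63 and 2.0), and HAUS2 was called lower against LL (-1.0), with values tied to those of a neighbouring gene. Among 15 regulators of mitotic entry and exit, 2 and 3 were called higher, with CKS1B, a CDK-binding subunit, leading against DP (1.43) and the CDK1-inhibiting kinase WEE1 against LL (1.51). WEE1 was at 0.14 against DP (adjusted p = 0.56).

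In 2 of the other 3 lists 1 gene was called, near the shares of all genes. Of 17 anaphase-promoting complex genes, ANAPC13 alone was called against DP (1.22) and 0 against LL by limma, where 5 were higher and 2 lower at an unadjusted p below 0.05. Of 10 condensin, cohesin and separase genes, NCAPD3 alone was called, against LL (1.44). None of 16 tested transcriptional regulators of mitotic genes was called in LG against either stage, by limma with both limits. By adjusted p alone 5 were higher against LL and 2 against DP, near the shares of all genes (25.6% and 18.4%). At an unadjusted p below 0.05, 6 and 4 were higher. FOXM1, the forkhead factor that activates G2 and mitosis genes, was below the filter and not tested, at 0.06, 0.04 and 0.07 FPKM in LL, 0.13, 0.08 and 0.07 in DP, then 0.54, 0.46 and 0.39 in LG. MYBL2, another activator of these genes, gave 0.39 against LL (adjusted p = 0.022) and 0.46 against DP (adjusted p = 0.015), and its values are tied to those of a neighbouring gene.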

How the data were processed

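Per the labels, total RNA of mammary tissue was sequenced after TruSeq v2 library preparation, which keeps no strand, and the submitters' processing notes name FastQC, Trimmomatic, HISAT2, SAMtools and HTSeq. By the study's methods, reads were aligned to the goat reference with HISAT2 and transcripts were quantified with StringTie. The authors deposited 1 value per gene and library, read here as FPKM, the study's measure, because values have decimals and library totals differ. The table names no unit or genome build, how transcripts became genes is not given in the sources used here, and the values hold no depth.

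The members and lists were chosen with earlier results of these data known. Median-ratio factors came from 15905 genes above 0 in every library, and 1 was added before taking log2. limma 3.58.1 in R 4.3.3 was fitted to all 9 libraries (lmFit, contrasts.fit, eBayes with a trend) with no covariates, tested on simulated data first. Adjusted p-values are limma's with Benjamini-Hochberg adjustment over 14701 genes. Separate goats stand behind the libraries, and 0 columns went unmapped. Given with every library's value were MKI67, TOP2A, CDK1 and, in each role, the members with the highest level and the largest and smallest LG fold changes. Other genes were named for the largest call of their list, besides FOXM1 and MYBL2, and further members with library values were picked after these were seen. Linked values were sought among 122854 neighbouring pairs. Promoter motifs and sequences were not analysed here. Alternatives covered scaling, pseudocount, filter, libraries fitted, variance trend, replicate block, linked genes and, chosen after seeing the data, the fixed amounts and factors from 1474 highly expressed genes.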

Additional observations from a re-analysis of the deposited data

How the results depend on the processing

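The higher level in LG held its direction in the median under every alternative run, while DP against LL did not. In LG against LL the median log2 fold change of the members was 1.05 and became 1.53 without scaling, 0.71 with quantile normalization, 2.07 with a pseudocount of 0.1, 1.42 with a filter of 2 FPKM and 1.46 with the 16 members at every fixed amount left out. In LG against DP it was 0.86 and became 1.11 with quantile normalization, 1.44 with the pseudocount of 0.1, 1.19 without the 16 members and 0.60 with factors from genes of at least 10 FPKM in every library, and adjusted p alone called 40 members in place of 21. In DP against LL it was -0.01 and became 0.45 without scaling, -0.54 with quantile normalization and 0.24 with factors from the genes of 10 FPKM. There the 3 calls became 13 without scaling, 0 with quantile normalization, 15 (9 higher and 6 lower) with the pseudocount of 0.1, 21 by adjusted p alone and 5 with factors from the genes of 10 FPKM. Removing the scaling moved the median of all genes by 1.09 (DP against LL), 0.93 (LG against LL) and -0.18 (LG against DP), and factors from the genes of 10 FPKM set it at 0.54, 0.17 and -0.36. Leaving out 1 library at a time gave 20 to 28 calls and medians of 0.93 to 1.12 in LG against LL, 16 to 22 calls and 0.64 to 0.92 in LG against DP, and 2 to 4 calls and -0.09 to 0.05 in DP against LL, with the lowest LG counts and medians all without LG1. Without LG1, SPC24 (0.99), BUB1 (0.95) and ANLN (0.93) fell below the fold limit against LL, as did CCNB2 (0.92), MAD2L1 (0.96) and SMC2 (0.84) against DP; SMC2 did so without DP3 (0.95), and TPX2 in DP against LL without DP1 (0.91). Over all settings, 42 members kept a positive sign in LG against DP, 35 in that against LL, and 10 in DP against LL. Replicate numbers stand for separate goats, and same-numbered libraries correlated at -0.11 to 0.20 in their deviations from the stage means (3 of 9 pairs above 0.1, 6 of 9 libraries best with their own number). With the replicate block the calls were 25, 21 and 3, as without it. With all linked genes left out, PLK1, SMC4 and NCAPH among them, 45 members remained, including CCNA2, which matches its neighbour in DP and LG only. Their calls were 25 in LG against LL, 21 in LG against DP and 3 in DP against LL, with medians of 1.07, 0.94 and -0.03. With 3 goats a stage and FPKM without read counts, differences between genes near 0 in LL cannot be resolved, and counting error is unknown.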
